A study of Mus musculus with 8 samples.

Results

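The enzymes of the pentose phosphate pathway and the cytosolic and mitochondrial enzymes that supply NADPH beside it were followed in gonadal white fat of Rap1-deficient mice and wild-type controls. The set was a list of 10 genes, G6pdx, H6pd, Pgls, Pgd, Rpia, Rpe, Tkt, Taldo1, Idh1 and Nnt, and a gene was counted as measured when an array probe carried the accession of one of its RefSeq transcripts. 9 of the 10 were measured, with 1 probe each, out of 14925 named genes and 33983 probes tested. No probe was named as Nnt in this way, and Nnt, the mitochondrial transhydrogenase, was not analysed here. The series held 4 Rap1-/- and 4 WT fat samples of mice aged 10 weeks, and the RNA of each was labelled with Cy3 and hybridised to a one-colour Agilent mouse array of its own. Rap1-/- mice lacked Terf2ip, the gene of the shelterin protein RAP1, in the whole body, because a floxed allele had been recombined in early embryos by a Cre transgene under the EIIa promoter, which was then bred out. WT mice carried intact Terf2ip, and both genotypes were of the C57BL6/129SV (90%:10%) background and, by the study's methods, kept on standard chow. The comparison bears on whether fat of young females, taken before the mutants became obese, already differed between genotypes.

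The pentose phosphate pathway branches from glycolysis at glucose 6-phosphate. Its oxidative arm, made of G6pdx, Pgls and Pgd, reduces NADP+ to NADPH while turning glucose 6-phosphate into ribulose 5-phosphate. The non-oxidative arm, made of Rpia, Rpe, Tkt and Taldo1, interconverts sugar phosphates, so that carbon can go to ribose for nucleotides or back to glycolysis. In white adipose tissue NADPH from the oxidative arm and from malic enzyme serves the reductive steps of fatty acid synthesis, and in all cells it keeps glutathione and thioredoxin reduced. H6pd runs the first oxidative steps inside the endoplasmic reticulum, where its NADPH feeds the glucocorticoid-activating enzyme Hsd11b1, and Idh1 makes NADPH in the cytosol from isocitrate.

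All levels below are the log2 of the background-subtracted probe signal minus the log2 of the 75th percentile of that array, so a value of 0 is the 75th percentile, and they compare arrays for 1 probe, never 1 probe with another. The 75th percentile signal itself was 392 to 497 on the Rap1-/- arrays and 302 to 431 on the WT arrays, and no probe was saturated. Terf2ip was read first as a check of the labels. Probe A_52_P381806 failed the background test on all 4 Rap1-/- arrays and lay between 0.06 and 0.49 on the WT arrays, at least 50.5-fold lower in Rap1-/- fat when the dimmest probes still well above background stand in for the Rap1-/- level. A second probe, A_55_P2094079, averaged 0.97 in Rap1-/- fat and -1.41 in WT fat, so the 2 probes differed in opposite directions. Where each probe lies relative to the removed part of the gene was not analysed here. These were the only 2 of 33983 probes past an adjusted p of 0.05 (limma with Benjamini-Hochberg adjustment), a background of 0.00589%. Rap1-/- samples occupied positions 3 and 4 and WT samples positions 1 and 2 on each of 2 slides, so array position and genotype cannot be told apart.

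RefSeq promoters (GRCm38.p6, 250 bases before to 50 after the start) were at hand for 9 of the 10 genes, 11 promoters in all. Shown are those of Tkt and Taldo1, which had the greatest differences between genotypes, and of G6pdx, which opens the pathway. Capitals mark matches to TGANNNNGC on either strand, where N is any base. This is a loose pattern searched here for the core of the antioxidant response element of NRF2 (Nfe2l2).
Tkt, chr14:30548881-30549180, plus strand: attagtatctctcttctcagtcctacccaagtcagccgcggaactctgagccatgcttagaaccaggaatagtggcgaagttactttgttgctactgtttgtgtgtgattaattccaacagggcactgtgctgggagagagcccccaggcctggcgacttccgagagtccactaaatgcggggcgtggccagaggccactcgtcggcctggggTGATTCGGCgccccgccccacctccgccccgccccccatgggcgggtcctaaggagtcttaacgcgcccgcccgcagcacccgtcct
Taldo1, chr7:141391910-141392209, plus strand: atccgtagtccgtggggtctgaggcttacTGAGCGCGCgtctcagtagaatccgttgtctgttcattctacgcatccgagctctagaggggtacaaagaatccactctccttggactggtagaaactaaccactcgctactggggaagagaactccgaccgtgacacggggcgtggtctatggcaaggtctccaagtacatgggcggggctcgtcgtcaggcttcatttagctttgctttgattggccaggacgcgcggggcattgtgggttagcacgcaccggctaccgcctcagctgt
G6pdx, chrX:74428831-74429130, minus strand: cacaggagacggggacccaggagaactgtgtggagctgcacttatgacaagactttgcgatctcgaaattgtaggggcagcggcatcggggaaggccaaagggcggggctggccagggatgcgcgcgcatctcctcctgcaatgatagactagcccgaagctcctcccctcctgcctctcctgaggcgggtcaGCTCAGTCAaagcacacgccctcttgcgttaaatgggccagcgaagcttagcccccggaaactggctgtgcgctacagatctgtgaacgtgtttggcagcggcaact
The match began 37 bases before the start in Tkt, 221 before it in Taldo1 and 57 before it in G6pdx. One of the starts each of Pgd and Idh1 held a match as well, and 41.3% of the 32851 promoters of this length did. The sterol response element TCACNCCAC stood in none of the 11 promoters and in 1.24% of all, and the E-box CACGTG, the letters read by MLX-family and MYC factors, in none of the 11 and in 7.15% of all. 2 tandem copies of TTAGGG, the telomere repeat to which shelterin binds through its TRF subunits, were in none of the 11 and in 0.0122% of all. No overlap between motifs occurred in these 11 windows, and the letters alone show no binding.

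No enzyme of the set passed the adjusted threshold between Rap1-/- and WT fat, and the non-oxidative pair Tkt and Taldo1 showed the greatest differences, with lower means in Rap1-/- fat. 7 of the 9 measured genes had a lower mean in Rap1-/- fat, against 59.6% of all probes tested. With arrays scaled to the probes of E1A, 4 of 9 did, against 14.3% of all probes. E1A is a control RNA that is added to each sample at labelling. The median difference of the 9 was -0.16 on the log2 scale, beside -0.04 over all tested probes, and with the spike-in scaling it was 0.07 beside 0.19. Tkt and Taldo1 had an unadjusted p under 0.05 in the lower direction, which 3.2% of all probes had, and the smallest adjusted p in the set was 0.897. In no gene of the set did the 4 Rap1-/- arrays lie wholly below or wholly above the 4 WT arrays, a pattern that 2.27% of all probes showed downward and 0.889% upward. All 9 probes were well above background on 8 of 8 arrays, so dimness did not limit these readings.

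**Figure D1:**
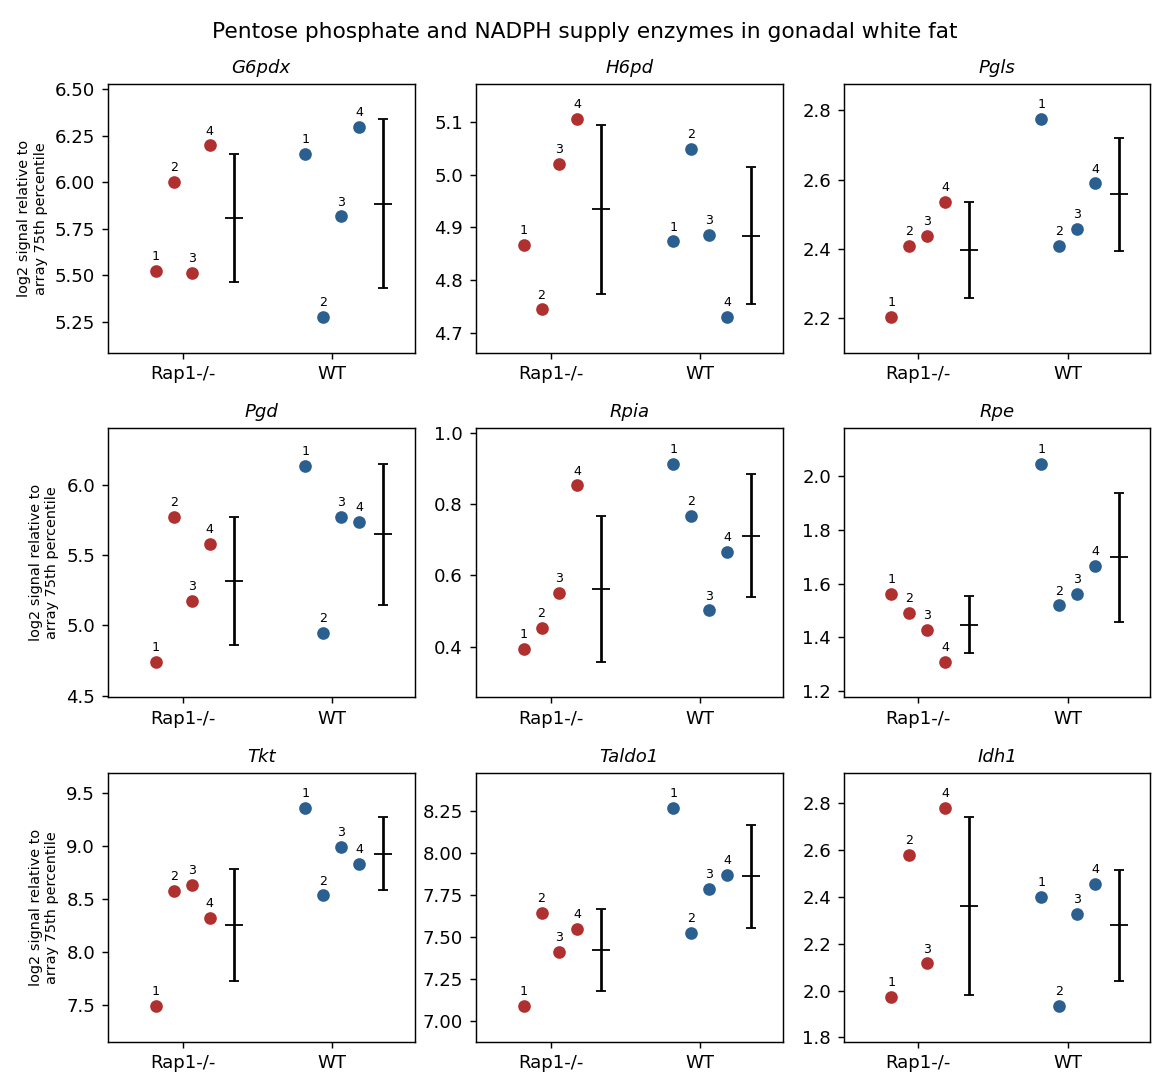
Log2 signal relative to the array 75th percentile (vertical axis, own scale in each panel) of the 9 measured enzymes in Rap1-/- (red, left) and WT (blue, right) fat. Points are arrays with their replicate number, and bars are the mean and SD of 4. The genotypes overlap in every panel, and for Tkt and Taldo1 only 2 of the 4 Rap1-/- arrays lie below the lowest WT array.

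Of G6pdx, Pgls, Pgd and the reticulum enzyme H6pd, grouped here as oxidative, 3 of 4 had a lower mean in Rap1-/- fat, none with an unadjusted p under 0.05. The count was 1 of 4 with spike-in scaling and 2 of 4 with quantile normalisation. Of all probes 59.6% were lower, 14.3% with spike-in scaling and 49.2% with quantile normalisation. The median difference of the 4 genes was -0.12, which turned to 0.11 with spike-in scaling and to 0.05 without replicate 1 of both genotypes. Those 2 arrays were chosen after seeing the data. G6pdx, glucose 6-phosphate dehydrogenase, which commits glucose 6-phosphate to the pathway, had levels of 5.52, 6.0003, 5.51 and 6.20 in Rap1-/- replicates 1 to 4 and of 6.15, 5.28, 5.82 and 6.30 in WT replicates 1 to 4. The highest and the lowest array were both WT, and the genotypes overlapped throughout. The difference was -0.08 ± 0.25 (SE, n = 4 each, limma adjusted p = 0.979), with a 95% interval of -0.66 to 0.50, so that this design bounds the G6pdx difference only loosely. Its sign turned with quantile or spike-in scaling and when 1 of several arrays was left out.

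Pgd, phosphogluconate dehydrogenase, the second NADPH-forming step, had levels of 4.74, 5.77, 5.17 and 5.58 in Rap1-/- fat and of 6.14, 4.94, 5.77 and 5.74 in WT fat. Only Rap1-/- replicate 1 lay below the lowest WT array. The difference was -0.33 ± 0.30 (SE, n = 4 each, limma adjusted p = 0.909), with an interval of -1.01 to 0.35. Without Rap1-/- replicate 1 it was -0.14 and without WT replicate 2 it was -0.57. Pgls, the lactonase between these dehydrogenases, had 2.20, 2.41, 2.44 and 2.54 in Rap1-/- fat and 2.77, 2.41, 2.46 and 2.59 in WT fat. All 4 Rap1-/- arrays were below the WT mean, yet the WT range covered 3 of them, and the difference was -0.16 ± 0.11 (SE, limma adjusted p = 0.897). H6pd, the reticulum enzyme, had 4.87, 4.74, 5.02 and 5.11 in Rap1-/- fat and 4.87, 5.05, 4.89 and 4.73 in WT fat. The genotypes overlapped, with SDs of 0.16 in Rap1-/- fat and 0.13 in WT fat, and the difference of 0.05 ± 0.11 (SE, limma adjusted p = 0.964) had an interval of -0.21 to 0.31. The H6pd difference was -0.16 on slide 1 and 0.26 on slide 2.

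All 4 genes of the non-oxidative arm had lower means in Rap1-/- fat (3 of 4 with spike-in scaling, where Rpia was at 0.08), with a median difference of -0.35, which was -0.11 with spike-in scaling and -0.18 without replicate 1 of both genotypes. Over all probes the share with lower means was 59.6%, and 14.3% with spike-in scaling. Of the 4 genes, 2 had an unadjusted limma p under 0.05, against 3.2% of all probes in the lower direction, and none passed the adjusted threshold. Tkt, transketolase, which moves a ketol unit between sugar phosphates, had levels of 7.49, 8.58, 8.63 and 8.32 in Rap1-/- fat and of 9.35, 8.53, 8.99 and 8.83 in WT fat. Every Rap1-/- array was below the WT mean, with replicate 1 the lowest of the 8 arrays. The means were 8.25 ± 0.53 in Rap1-/- fat and 8.93 ± 0.34 in WT fat (SD, n = 4 each), 1.59-fold lower in Rap1-/- fat. The log2 difference of -0.67 ± 0.28 (SE) had an interval of -1.31 to -0.04 and a limma p of 0.0404 before and 0.897 after adjustment, and the 2-sided exact permutation test gave p = 0.0857, where 0.0286 is the smallest that 4 against 4 arrays can give. The difference was -0.91 on slide 1 and -0.43 on slide 2, and -0.44 with spike-in scaling. It was -0.42 without Rap1-/- replicate 1, -0.53 without WT replicate 1 and -0.27 without both. These 2 arrays held the lowest and the highest Tkt level and were chosen after seeing the data. Leaving them out therefore had to shrink the difference. The unadjusted limma p of Tkt was 0.117 with spike-in scaling, 0.0754 with quantile normalisation and 0.0591 in the authors' deposited values. It was 0.0909 with the replicate number as a block, 0.0483 with slide as a block and 0.0370 with median scaling. With single arrays left out it ranged from 0.0269 to 0.107.

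Taldo1, transaldolase, the partner of Tkt in rearranging sugar phosphates, had levels of 7.09, 7.65, 7.41 and 7.55 in Rap1-/- fat and of 8.27, 7.52, 7.79 and 7.87 in WT fat. Every Rap1-/- array was again below the WT mean, and replicates 1 and 3 were below the lowest WT array. The means were 7.42 ± 0.24 in Rap1-/- fat and 7.86 ± 0.31 in WT fat (SD, n = 4 each), 1.36-fold lower in Rap1-/- fat, with a log2 difference of -0.44 ± 0.18 (SE, interval -0.85 to -0.02). The limma p was 0.0406 before and 0.897 after adjustment, the exact permutation p was 0.0857, and the slides gave -0.53 and -0.35. Without Rap1-/- replicate 1 and WT replicate 1 together the difference was -0.19, and with spike-in scaling it was -0.21, with the unadjusted limma p above 0.05 in both. That p was also above 0.05 with median scaling (0.0589), quantile normalisation (0.110), the authors' deposited values (0.0810) and the replicate number or slide as a block (0.102 and 0.0541). With single arrays left out it ranged from 0.0153 to 0.106.

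Rpe, the epimerase that makes xylulose 5-phosphate from ribulose 5-phosphate, had levels of 1.56, 1.49, 1.43 and 1.31 in Rap1-/- fat and of 2.05, 1.52, 1.56 and 1.67 in WT fat. 3 of the 4 Rap1-/- arrays lay below the lowest WT array, and the high WT value came from replicate 1. The difference was -0.25 ± 0.13 (SE, n = 4 each, limma p = 0.0911, adjusted p = 0.897, exact permutation p = 0.0571), and it was nearly the same on slide 1, at -0.26, and on slide 2, at -0.25. With spike-in scaling it was -0.02. Rpia, the isomerase that makes ribose 5-phosphate, had 0.39, 0.45, 0.55 and 0.85 in Rap1-/- fat and 0.91, 0.77, 0.50 and 0.67 in WT fat. The difference of -0.15 ± 0.13 (SE, limma adjusted p = 0.909) came from slide 1, where it was -0.42, while slide 2 gave 0.12.

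Idh1, the cytosolic isocitrate dehydrogenase, had levels of 1.97, 2.58, 2.12 and 2.78 in Rap1-/- fat and of 2.40, 1.93, 2.33 and 2.46 in WT fat. Rap1-/- replicates 2 and 4 were above every WT array, while replicates 1 and 3 fell inside the WT range. The difference was 0.08 ± 0.20 (SE, n = 4 each, limma adjusted p = 0.968), with an interval of -0.38 to 0.55, and it was 0.11 on slide 1 and 0.06 on slide 2.

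**Figure D2:**
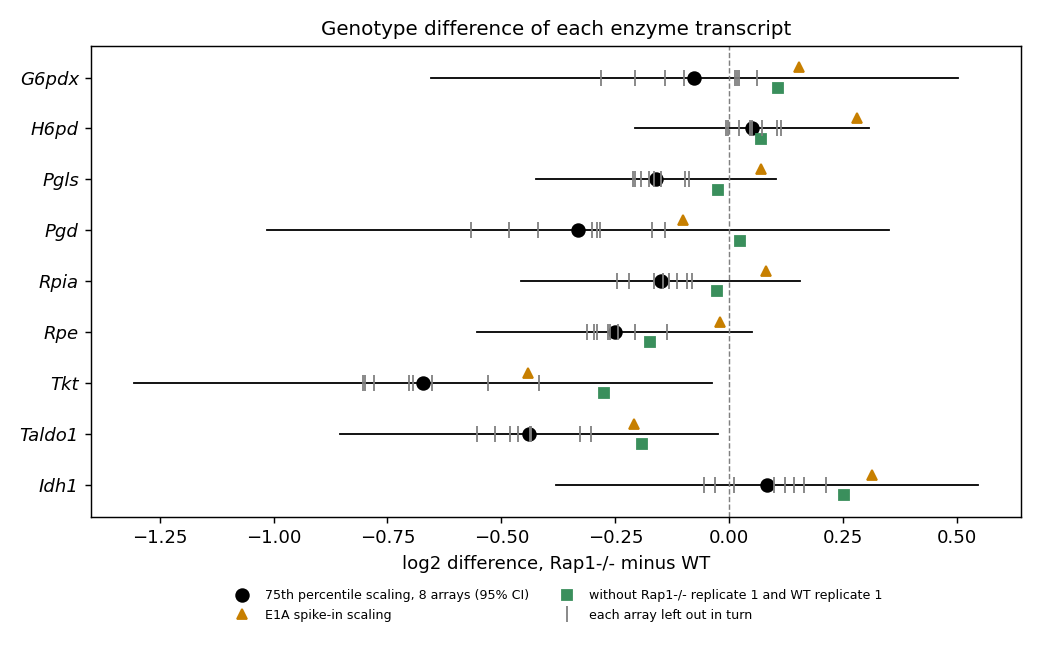
Log2 difference, Rap1-/- minus WT (horizontal axis), of each enzyme transcript, with the 95% confidence interval from the limma fit on 4 arrays per genotype, and the same difference with spike-in scaling, with each array left out in turn and without replicate 1 of both genotypes. Tkt, Taldo1 and Rpe keep a negative difference under all of these, and among the 9 intervals those of Tkt and Taldo1 alone leave out 0.

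The spread within a genotype was as wide as most of these differences, and it was shared between some of the enzymes. Averaged over the 9 genes and centred over the 8 arrays, the level was -0.40, 0.02, -0.13 and 0.08 in Rap1-/- replicates 1 to 4 and 0.38, -0.17, 0.07 and 0.15 in WT replicates 1 to 4. Rap1-/- replicate 1 was thus the lowest of the 8 arrays and WT replicate 1 the highest. The following correlations are descriptions over 8 arrays, which share their scaling and hold both genotypes. Tkt and Taldo1 moved together across arrays (Pearson r = 0.92, Spearman rho = 0.81), with r = 0.85 after removing the genotype means and 0.69 without replicate 1 of both genotypes. Pgd went with Taldo1 (r = 0.90, rho = 0.90, within genotype 0.95, without those replicates 0.75). G6pdx went with Idh1 (r = 0.88, rho = 0.86, without those replicates 0.90) and with Pgd (r = 0.82, rho = 0.55), but with Tkt only at r = 0.42, and at 0.04 without those replicates. H6pd stood apart, with r between -0.45 and 0.43 to the 8 other genes. Rpe went with Taldo1 (r = 0.73) but not with Idh1 (r = -0.08), and Rpia with Pgls (r = 0.78) but less with Rpe (r = 0.35). Without replicate 1 of both genotypes, Rpia with Tkt went from r = 0.50 to -0.61, and Pgls with Tkt from 0.85 to 0.10.

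Gene lists around the pathway had no gene past the adjusted threshold either. Spike-in scaling adds the same amount to every difference and changed the counts of most lists, given here in brackets. Of all probes tested, 59.6% had lower means in Rap1-/- fat, and 14.3% did with spike-in scaling. An unadjusted limma p under 0.05 in the lower direction was found for 3.2% of all probes. Among other enzymes that make NADPH or NADP, 7 of 11 tested (4 of 11) had lower means in Rap1-/- fat, 2 at an unadjusted p under 0.05, with a median difference of -0.07. Me1, cytosolic malic enzyme and the main other source of NADPH for lipogenesis, had 6.15, 7.69, 7.37 and 7.37 in Rap1-/- fat and 8.83, 7.41, 7.94 and 8.17 in WT fat, a difference of -0.94 ± 0.39 (SE, limma adjusted p = 0.897). It was lowest in Rap1-/- replicate 1 and highest in WT replicate 1, as Tkt was. Nadk, which makes NADP+ from NAD+, differed by -0.24 ± 0.10 (SE), and Me3, a mitochondrial malic enzyme, by 0.43 ± 0.26. Aldh1l1, a folate enzyme that yields NADPH, differed by -0.25 ± 0.12 (SE). Its Rap1-/- arrays all lay below every WT array, a pattern of 2.27% of all probes. Relatives of the pathway enzymes and the genes around its ribose and pentose products were evenly split, with 4 of 9 tested (0 of 9) lower and a median of 0.01. Prps2, which takes ribose 5-phosphate into nucleotide synthesis, differed by 0.36 ± 0.20 (SE), and Pgm1, which links glucose 6-phosphate to glycogen, by -0.19 ± 0.11. Upstream, 6 of 7 genes of glucose 6-phosphate supply (3 of 7) had lower means (median -0.07), among them Gpi1, the isomerase that takes glucose 6-phosphate into glycolysis, at -0.32 ± 0.17 (SE), and Slc2a4, the insulin-regulated glucose transporter, at -0.28 ± 0.17, while the hexokinase Hk1 was at 0.15 ± 0.13.

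Of the enzymes that spend NADPH on lipids, 10 of 13 tested had lower means in Rap1-/- fat (5 of 13 with spike-in scaling, median -0.06, 1 at an unadjusted p under 0.05). Without replicate 1 of both genotypes 6 of 13 did (median 0.09, against 57.0% of all probes). With median scaling 6 of 13 did (median 0.004, against 44.3% of all probes). Beside the counts of this and the next lists stand 59.6% of all probes with lower means, 14.3% with spike-in scaling. The share at an unadjusted limma p under 0.05 in the lower direction was 3.2%. Fasn, fatty acid synthase, had 4.01, 5.78, 5.45 and 5.38 in Rap1-/- fat and 6.67, 5.23, 5.84 and 6.14 in WT fat, a difference of -0.81 ± 0.43 (SE, limma adjusted p = 0.897). Por, the reductase that passes electrons from NADPH to cytochromes P450, differed by -0.36 ± 0.15 (SE), and Tecr, which closes the very long chain elongation cycle, by -0.40 ± 0.22. Of the enzymes that spend NADPH on redox reactions, 5 of 13 had lower means (1 of 13 with spike-in scaling, median 0.02), with Gsr, glutathione reductase, at -0.09 ± 0.08 (SE) and Txnrd2, the mitochondrial thioredoxin reductase, at -0.21 ± 0.13. Lipogenic enzymes that neither make nor use NADPH had the lowest median of these lists, -0.76, with 8 of 9 lower, also with spike-in scaling, and 1 at an unadjusted p under 0.05. Without replicate 1 of both genotypes 8 of 9 had lower means and the median was -0.21. Acaca, acetyl-CoA carboxylase, lay wholly below WT, as 2.27% of all probes did. It was at 6.86, 8.09, 8.08 and 8.16 in Rap1-/- fat and 9.02, 8.19, 8.73 and 8.32 in WT fat, with a difference of -0.77 ± 0.32 (SE, limma adjusted p = 0.897). Elovl6, a fatty acid elongase, differed by -1.06 ± 0.50 (SE) and Acss2, which makes acetyl-CoA from acetate, by -0.94 ± 0.43. Of 12 regulators of these genes 9 had lower means (4 with spike-in scaling, median -0.15), among them Srebf1, the lipogenic SREBP gene, at -0.87 ± 0.38 (SE) and wholly below WT (2.27% of all probes), and Pparg, the adipocyte nuclear receptor, at -0.28 ± 0.12. Mlxip, the glucose-sensing factor MondoA, lay wholly above WT (0.889% of all probes), at 0.17 ± 0.08 (SE).

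**Figure D3:**
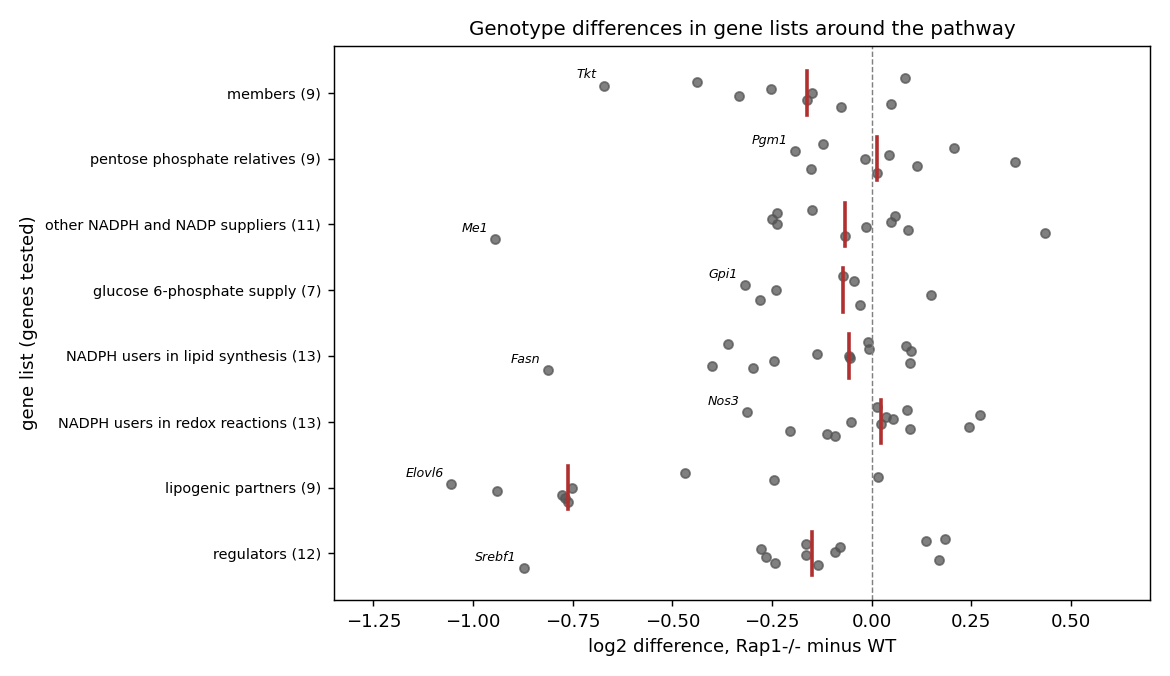
Log2 difference, Rap1-/- minus WT (horizontal axis), of each gene tested in 8 lists, with the list's median as a red line and the gene with the lowest difference named. Medians lie between -0.76 for the lipogenic partners and 0.02 for the redox users, and the enzymes of the set have a median of -0.16.

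Across the 8 arrays the mean of the 9 enzymes followed the lipogenic partners (r = 0.96, rho = 0.88, within genotype 0.95, without replicate 1 of both genotypes 0.82) and the lipid-making NADPH users (r = 0.92, rho = 0.93), and did not follow the redox users (r = -0.30). The mean also followed the regulators (r = 0.92, rho = 0.71) and the other NADPH suppliers (r = 0.92, rho = 0.90). By gene, r to the lipogenic partners was 0.97 for Tkt, 0.96 for Taldo1, 0.93 for Pgls and 0.91 for Pgd. It was 0.61 for G6pdx, 0.58 for Rpia, 0.57 for Rpe, 0.51 for Idh1 and -0.17 for H6pd. 8 genes outside all lists were most like the mean of the 9 enzymes among 13819 named genes well above background on all 8 arrays. These were Tufm, a mitochondrial translation elongation factor (r = 0.99, rho = 0.98), Recql4, a DNA helicase (r = 0.99), Atp5d, a subunit of ATP synthase (r = 0.99), Ddx27, an RNA helicase (r = 0.98), Fuom, fucose mutarotase (r = 0.98), Uqcrc2, a subunit of respiratory complex III (r = 0.98), Bcs1l, its assembly factor (r = 0.98), and Cs, citrate synthase (r = 0.97). Without replicate 1 of both genotypes their r ranged between 0.90 for Uqcrc2 and 0.96 for Ddx27. They were picked for this likeness, so the values are a description.

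No marker of the cell types in the fat pad passed the adjusted threshold, and in whole tissue fewer cells of a type cannot be told apart from less RNA per cell. Adipocyte markers defined the sample, with Adipoq at 8.80 to 9.19 in Rap1-/- fat and 8.76 to 9.26 in WT fat. 9 of 10 adipocyte markers had lower means in Rap1-/- fat (median -0.24, against 59.6% of all probes), and 5 of 10 did with spike-in scaling, against 14.3% of all probes. 4 of the 10 had an unadjusted p under 0.05 in the lower direction, against 3.2% of all probes. Cidec and Fabp4 lay wholly below WT, as 2.27% of all probes did, at -0.31 ± 0.10 and -0.27 ± 0.09 (SE). Lep, leptin, was at 0.63 ± 0.31 (SE). The size of the adipocyte median depended on the processing. With quantile normalisation it was -0.03 and in the authors' deposited values -0.04, each with 7 of 10 lower, against 49.2% of all probes. With median scaling it was -0.18 and with normexp background correction -0.19, each with 9 of 10 lower. Of all probes 44.3% and 69.1% were lower in these. All 8 mesothelial markers had higher means (median 0.60, centred list mean 0.11 to 0.41 in Rap1-/- fat and -1.04 to 0.28 in WT fat). Of these, 1 lay wholly above WT, as 0.889% of all probes did. An unadjusted limma p under 0.05 in the higher direction was found for 2 of the 8. Of 33983 probes 1641 had such a p in either direction, and 1087 of these were in the lower direction. 6 of 8 fibroblast markers (median 0.20) and 5 of 7 macrophage markers (median 0.15) also had higher means, and without replicate 1 of both genotypes only 3 of 7 macrophage markers did, with 6 of 8 fibroblast markers. Of the endothelial markers 6 of 7 had lower means (1 of 7 with spike-in scaling, median -0.04). Skeletal muscle markers had 9 of 9 lower means (5 of 9 without replicate 1 of both genotypes), lowest in Rap1-/- replicates 1 and 4, with a centred list mean of -5.17 to 3.41 in Rap1-/- fat and -0.71 to 1.93 in WT fat, and Myh4 was not well above background on 2 of the 4 Rap1-/- arrays. Lymphocyte (3 of 7 lower) and brown fat markers (2 of 4 lower) were split, and 3 of 3 red blood cell markers had lower means. Of the epithelial and mammary markers only 2 of 7 could be tested. Krt14, 1 of the 2, lay wholly above WT, as 0.889% of all probes did, at 0.36 ± 0.13 (SE). The enzyme mean ran against the macrophage markers across the 8 arrays (r = -0.87, rho = -0.93, without replicate 1 of both genotypes -0.96) and had no settled relation to the adipocyte markers (r = 0.23, within genotype -0.22, without replicate 1 of both genotypes -0.34). With the marker mean as a covariate the Tkt difference was -0.64 for adipocyte, -0.50 for mesothelial and -0.53 for skeletal muscle markers, and that of Pgd was -0.55, 0.01 and -0.25. The part of macrophages in the result was not tested.

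**Figure D4:**
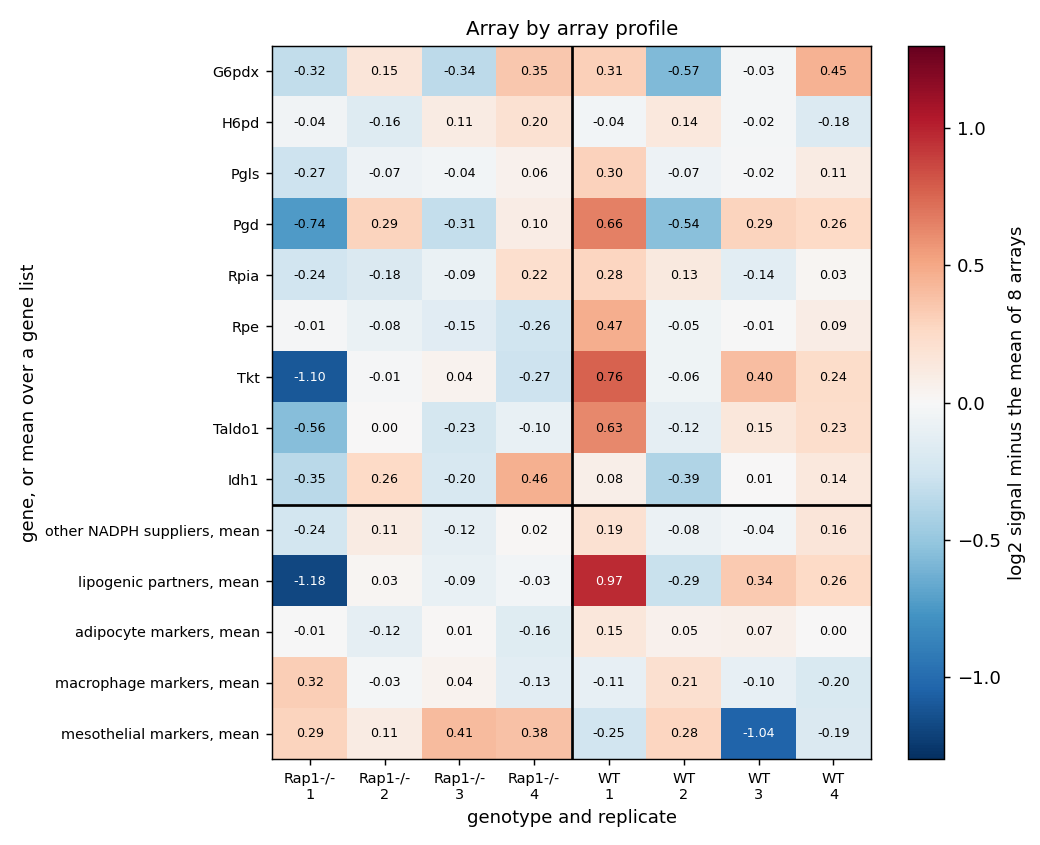
Log2 signal minus the mean of the 8 arrays (colour and printed value) for the 9 enzymes, above the line, and for the mean of 5 gene lists, below it, in Rap1-/- replicates 1 to 4 (left) and WT replicates 1 to 4 (right). Rap1-/- replicate 1 has the lowest value of Tkt, Pgd, Taldo1 and Pgls and of the lipogenic partners, and WT replicate 1 the highest.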

How the data were processed

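Per the file headers, images of one-colour arrays were quantified with Feature Extraction 10.7.3.1, and the deposited intensity values are background-subtracted spot signals. The deposited series table holds the authors' normalised log2 values, made with limma (version and normalisation not given in the sources used here), and it served as an alternative. Here 62976 spots per array were read, 3671 control spots were left out, and the log2 of each intensity minus that of the array 75th percentile was averaged over spots of a probe. 26056 of 55681 gene probes (46.8%) were named through RefSeq accessions of a GRCm38.p6 table. The 33983 probes that passed the background test on 4 or more of the 8 arrays were tested with limma 3.58.1 in R 4.3.3 (lmFit and eBayes, Benjamini-Hochberg adjustment, threshold 0.05), after a test on simulated data. 59.7 to 65.2% of spots were well above background, and the number of arrays limits the precision. The labels number replicates without saying that each is a separate mouse, so p-values measure only the spread between these samples, which may be technical.

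The 10 genes and all gene lists were chosen with earlier results of these data known. Named from each other list were up to 4 genes with the smallest unadjusted p, a few more being named for their role after their values were seen (Adipoq, Lep, Myh4), and up to 8 genes outside the lists with the highest Pearson r to the mean of the 9 enzymes. Alternatives covered scaling, background correction, probe filter, probes per gene, slide or replicate as a block, variance model, cell marker means as covariates, and arrays left out. Every array column belonged to a sample of the series.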

Additional observations from a re-analysis of the deposited data

How the results depend on the processing

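No enzyme passed the adjusted threshold under any of 26 alternatives (at an unadjusted p under 0.05, between 0 and 2 did), and Tkt, Taldo1 and Rpe kept lower means in Rap1-/- fat in all 26, with ranges of -0.91 to -0.27, -0.55 to -0.19 and -0.31 to -0.02. Of 234 single differences 212 kept their sign and 22 turned. With spike-in scaling 4 enzymes had lower means, their median was 0.070, and G6pdx was 0.15, Pgls 0.070 and Rpia 0.081. Relative to 59.6% of all probes lower in Rap1-/- fat, 14.3% were lower with spike-in scaling, 44.3% with median scaling, 49.2% after quantile normalisation, 49.2% in the deposited table and 69.1% with normexp. G6pdx was 0.029 under quantile normalisation, 0.028 in the deposited values and 0.048 within slide 1. Within slide 1 H6pd was -0.16, and within slide 2 Rpia was 0.12. With the mesothelial covariate G6pdx was 0.10, H6pd -0.036 and Pgd 0.0069, and with the adipocyte covariate Idh1 was -0.31. Leaving out each array in turn gave 6 to 9 enzymes with lower means (9 without Rap1-/- replicate 4), a median of -0.28 without WT replicate 2 to -0.09 without WT replicate 1, and ranges of -0.28 to 0.06 for G6pdx, -0.0071 to 0.11 for H6pd, -0.055 to 0.21 for Idh1 and -0.57 to -0.14 for Pgd. Leaving out Rap1-/- replicate 1 and WT replicate 1 together, chosen after seeing the data, left 5 enzymes lower with a median of -0.02, with G6pdx at 0.11, Pgd at 0.023 and Idh1 at 0.25. Probes past the adjusted threshold, 2 at first, were 1 with the filter on all 8 arrays, with the brightest probe or the mean of probes per gene and within slide 1, 0 within slide 2, and 3 with normexp, with the deposited values and with a trended, robust variance. Same-numbered samples did not deviate together (r between -0.21 and -0.10), while r over all pairs across genotypes ranged from -0.34 to 0.35. With 4 arrays per genotype these values cannot settle whether the numbers pair samples. The replicate block left 2 probes and 0 enzymes past the threshold and 7 enzymes with lower means.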

Other observations

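Hsd11b1, which regenerates active glucocorticoid with the NADPH of H6pd, had levels of 2.62, 2.79, 2.68 and 2.82 in Rap1-/- fat and of 3.08, 2.40, 2.23 and 3.14 in WT fat, a log2 difference of 0.01 ± 0.21 (SE, n = 4 each, limma adjusted p = 0.996). The 4 Rap1-/- arrays lay within the WT range. Slc37a4, the transporter that brings glucose 6-phosphate to H6pd in the reticulum, differed by -0.04 ± 0.12 (SE, limma adjusted p = 0.972). Idh2, the mitochondrial counterpart of Idh1, differed by 0.09 ± 0.11 (SE, limma adjusted p = 0.925), with all 8 arrays between 4.81 and 5.18. Nfe2l2, which encodes NRF2, differed by -0.08 ± 0.12 and its target Nqo1 by 0.10 ± 0.16 (SE). These 5 genes were chosen for their roles after their values were seen. In the 18 groups of 4 arrays formed by the 9 enzymes and 2 genotypes, no array lay far enough from the other 3 to pass Dixon's criterion.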
